A study of Mus musculus with 22 samples.

Results

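The H3.3 landscape of the Cg testis was described from 4 of the 22 libraries of the series: 3 anti-H3.3 chromatin immunoprecipitation libraries titled Cg_1 to Cg_3 and the 1 Cg input library. Members were chosen by their titles, not by any measured value. Cg males carry the strain label B6.SPRET7MOLF12, are labelled as the control genotype, carry no Robertsonian translocation by their labels and were 6 weeks old. The comparison libraries, also anti-H3.3 and from animals 6 weeks old, came from heterozygous carriers of 1 Robertsonian translocation (1Rb, F1 of CBy.RBF-Rb(8.12)5Bnr/J and B6.SPRET7MOLF12, n = 3) and of 3 translocations (3Rb, F1 of B6.SPRET7MOLF12 and RBF/Dnj, n = 3). Control mice of strain C57BL/6J (B6), 4 weeks old, gave 1 library of another histone mark and 1 input, and a 1Rb input from animals 4 weeks old, labelled as F1 of CBy.RBF-Rb(8.12)5Bnr/J and C57BL/6J, was used in alternatives only. A Robertsonian translocation joins a pair of chromosomes at their centromeres. The H3.3 antibody was from Millipore, and all samples were whole testis, so germ cells of every stage and somatic cells contributed to each value. The labels do not say whether the 3 libraries came from separate mice, so every SD and p below rests on the spread between libraries, which may be technical.

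H3.3 is a histone H3 variant that is placed into chromatin outside of DNA replication. HIRA and its partners deposit it at active genes, and DAXX with ATRX deposits it at repeats and heterochromatin. In the testis H3.3 is known for its incorporation over the X and Y chromosomes in meiosis, when these chromosomes form the silenced sex body, and for its presence in round spermatids ahead of the exchange of histones for protamines.

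The files gave read counts in windows of 50 kb over 19 autosomes, X and Y of mm10. A level is the log2 ratio of H3.3 to Cg input after 0.5 was added to each count and each library was divided by its autosome total. A level of 0 therefore means the same share of autosomal reads in both libraries. The level of a class of windows is its median window, given as mean ± SD over the 3 libraries. Windows whose Cg input lay between 0.2 and 5 times the autosomal median of 781 reads were used, which kept 53012 of 54520 windows, 47957 of them autosomal. Of the 1508 windows left out, 1399 had no input read. Autosome totals were taken over all autosomal windows, those left out included. The windows left out held 10.5% of input reads and 6.15%, 8.03% and 7.34% of reads in H3.3 replicates 1, 2 and 3.

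The 3 H3.3 libraries held 128348440, 43135904 and 41278440 reads and the input 44759882. Counting error at the median autosomal window was 2.26%, 3.91% and 4.00% in H3.3 and 3.57% in the input. Replicates ranked the windows alike, with Spearman's rho from 0.971 to 0.975 over all 53012 windows, as a description over windows that share 1 input. Replicate 1 was the deepest and stood apart in spread: the interquartile range of its autosomal windows was 0.74, against 0.61 and 0.63 in replicates 2 and 3. Across windows the replicate SD had a median of 0.062, while the SD between autosomal windows was 0.425.

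Against input, 19592 windows were higher in H3.3 (37.0% of those tested) and 22494 were lower (42.4%), together 79.4%, by edgeR's quasi-likelihood test at a Benjamini-Hochberg adjusted p under 0.05. With DESeq2 the order of these counts turned, at 19080 higher and 17152 lower. The input is 1 library and was assumed to vary like the H3.3 libraries. Called windows of one direction were joined into regions where at most 1 window lay between them. Autosomal higher windows formed 2146 regions with a median length of 0.15 Mb, and lower windows formed 1808 regions with a median of 0.2 Mb. The longest higher region of an autosome covered 10.75 Mb, chr4:131600001-142350000, with 1.53 protein-coding genes per window. The longest lower region covered 12.3 Mb, chr15:13050001-25350000, with 0.236 genes per window.

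Both sex chromosomes carried more H3.3 than any autosome. The median X window stood at 0.98, 1.04 and 1.09 in replicates 1, 2 and 3, a mean of 1.04 ± 0.055 (SD, n = 3), or 2.05-fold over the level of the autosome totals. The median Y window stood at 0.95, 1.02 and 1.06, a mean of 1.01 ± 0.057. X exceeded Y by 0.029 ± 0.0093, in 3 of 3 libraries. Over the median autosomal window, at -0.13 ± 0.0030, X was 1.17 ± 0.056 higher. Higher windows covered nearly all of both chromosomes among the windows used: 3284 of 3284 X windows and 1768 of 1771 Y windows were higher by edgeR's test, and none was lower. Of X windows 93.1% lay above the autosomal 95th percentile of 0.75, and of Y windows 97.9%. The median input of X windows was 0.89 below the autosomal median on the log2 scale and that of Y windows 0.86 below, in these male samples. Each level is a ratio to that input, and whether the lower input has a part in the level of X and Y was not tested.

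**Figure D1:**
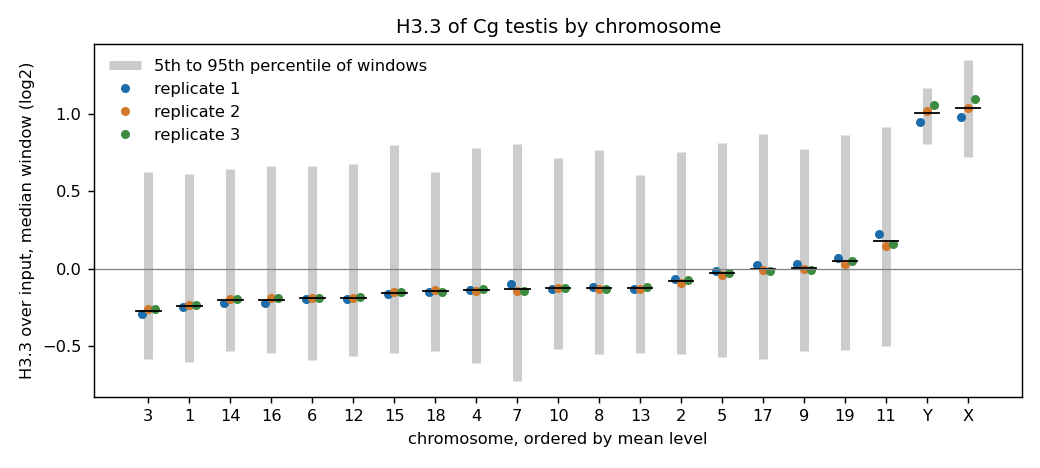
Median H3.3 level over input (log2, vertical axis) of each chromosome (horizontal axis, ordered by mean) in the 3 Cg libraries (points), with their mean (black line) and the range from the 5th to the 95th percentile of windows (grey). X and Y sit near 1, while the autosomes run from -0.27 on chromosome 3 to 0.18 on chromosome 11.

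The autosomes spanned a narrower range. Chromosome 11 was highest at 0.23, 0.15 and 0.16 (mean 0.18 ± 0.042), followed by 19 at 0.05 ± 0.020, 9 at 0.0081 ± 0.022 and 17 at 0.0019 ± 0.021. Chromosome 9 lay above 17 in 3 of 3 libraries, by less than the SD of either. Chromosomes 8, 13, 10 and 7 lay between -0.125 and -0.129, and their order changed between libraries. Chromosome 3 was lowest at -0.29, -0.26 and -0.26 (mean -0.27 ± 0.017), below 1 at -0.24 ± 0.0061, and then 14 and 16, both at -0.20. Chromosome 11 exceeded 3 by 0.45 ± 0.060 in 3 of 3 libraries, which is 1.36-fold. Chromosome 11 held 1.15 protein-coding genes per window and 3 held 0.654. Over the 19 autosomes the level went with genes per window at Spearman's rho of 0.77 to 0.85 in the 3 libraries, a description over points that share libraries. With the B6 input in place of the Cg input the levels were 0.09 for chromosome 11 and -0.22 for 3.

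Gene content ordered the autosomal windows. Windows with no protein-coding gene had a median level of -0.39, -0.33 and -0.34 (mean -0.35 ± 0.029, 20033 windows). With 1 gene the mean was 0.03 ± 0.020 (19834 windows), with 2 genes 0.40 ± 0.045 (5394 windows) and with 3 to 4 genes 0.61 ± 0.066 (2315 windows). Windows with 5 or more genes reached 0.96, 0.79 and 0.82 (mean 0.86 ± 0.092, 381 windows). Each step was positive in 3 of 3 libraries, and the libraries of neighbouring classes did not overlap. Gene-dense windows exceeded gene-free windows by 1.21 ± 0.12, or 2.31-fold. Of gene-free windows 6.03% were higher and 74.6% lower than input, and of windows with 5 or more genes 89.0% were higher and 4.20% lower, by edgeR's test. The 5th percentile of these gene-dense windows was -0.14, so some of them were not enriched.

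The input itself was also higher with more genes. Relative to the autosomal median its log2 count was -0.048 in gene-free windows and 0.19 in windows with 5 or more genes. Over autosomal windows H3.3 went with the input count at Spearman's rho of 0.60 to 0.66. In windows whose input lay from 5% below to 15% above the median, a range chosen after the data were seen, gene-free windows stood at -0.29 ± 0.0065 (12054 windows) and those with 5 or more genes at 0.77 ± 0.088 (210 windows), a difference of 1.06 ± 0.094.

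**Figure D2:**
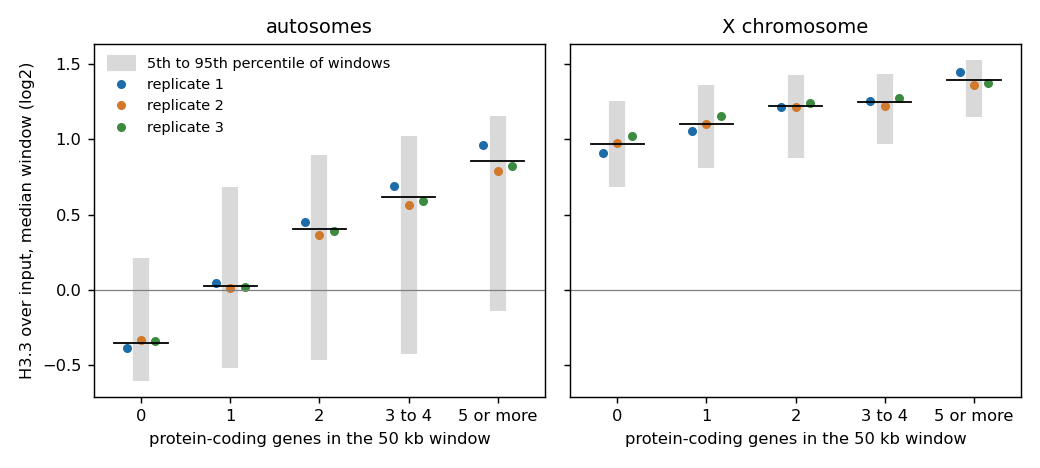
Median H3.3 level over input (log2, vertical axis) by number of protein-coding genes in the 50 kb window (horizontal axis), on autosomes (left) and X (right), for 3 Cg libraries (points) with their mean (black line) and the 5th to 95th percentile of windows (grey). On autosomes the mean runs from -0.35 to 0.86, and on X from 0.97 to 1.39.

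On X the same order held over a smaller range. Gene-free X windows stood at 0.97 ± 0.056, windows with 1 gene at 1.10 ± 0.049, with 2 genes at 1.22 ± 0.018 and with 3 to 4 genes at 1.25 ± 0.025. The 9 windows with 5 or more genes reached 1.39 ± 0.047. Windows with 3 to 4 genes exceeded gene-free windows by 0.28 ± 0.057 in 3 of 3 libraries. They overlapped those with 2 genes, at 1.26, 1.22 and 1.27 against 1.21, 1.21 and 1.24. Gene-free X windows thus lay above the gene-dense class of autosomes by median in replicates 2 and 3, at 0.98 and 1.02 against 0.79 and 0.82, and below it in replicate 1, at 0.91 against 0.96. On Y, which holds few RefSeq genes per window, gene-free windows stood at 1.01 ± 0.054 and those with 1 gene at 0.99 ± 0.073, with gene-free windows the higher in 3 of 3 libraries by less than the SD of either class.

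Levels also differed by type of gene. Autosomal windows that overlap a protein-coding gene had a median of 0.15 ± 0.030. Windows with a long non-coding RNA gene but no protein-coding gene stood at -0.17 ± 0.0015, and windows with a pseudogene but neither of these at -0.37 ± 0.027. Windows with no annotated gene stood at -0.40 ± 0.037. Long non-coding RNA windows exceeded windows with no gene by 0.23 ± 0.036 and pseudogene windows did so by 0.035 ± 0.010, both in 3 of 3 libraries.

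Small RNA genes, too, were read with and without a coding gene beside them. Windows with a tRNA gene (150 windows) had a median of 0.49 ± 0.056, and the 33 of them with no protein-coding gene stood at -0.10 ± 0.033. Windows with a miRNA gene (878 windows) stood at 0.49 ± 0.063, and the 130 with no coding gene at -0.10 ± 0.016. Windows with a small nucleolar RNA gene stood at 0.00082 ± 0.013 and at -0.34 ± 0.022 with no coding gene. Variable segments of immunoglobulin and T cell receptor genes, which are assembled only in lymphocytes, were low at -0.46 ± 0.025. Of their 156 windows 147 were lower than input and none was higher, by edgeR's test. Over all autosomal windows 46.9% were lower and 30.3% higher.

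Levels were lower farther from genes. Gene-free autosomal windows next to a window with a coding gene stood at -0.18 ± 0.0014, those 2 to 4 windows away at -0.32 ± 0.020, and those 5 to 9 windows away at -0.40 ± 0.033. Windows at least 10 windows from any coding gene stood at -0.45 ± 0.049, and 97.0% of these 4298 windows were lower than input by edgeR's test. In replicate 1 the drop from the nearest to the farthest class was 0.33 and in replicates 2 and 3 it was 0.24 and 0.25.

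Windows with a single coding gene had the highest median where they held its start, as a comparison over windows of different genes. Among autosomal windows with exactly 1 coding gene, those that hold its start had a median of 0.15 ± 0.035, those with its far end but not its start 0.07 ± 0.028, and those in its body -0.052 ± 0.0090. Start windows exceeded body windows by 0.20 ± 0.027 in 3 of 3 libraries. Body windows come only from genes longer than 50 kb, and gene length was not matched between the classes. A start was placed at the outermost RefSeq promoter, known for 81.7% of coding genes of the autosomes other than 18.

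Start windows also differed by the CG content of the promoter. CG dinucleotides are depleted across mammalian genomes and kept in CpG islands, which mark promoters of broadly expressed genes. Over the 300 bases from 250 before to 50 after the start, the ratio of observed to expected CG was computed, and 49.8% of 16456 autosomal promoters had a ratio of at least 0.6. Windows of single genes with such a promoter stood at 0.35 ± 0.042 (2524 windows), those with a ratio of 0.4 to 0.6 at 0.09 ± 0.032 (687 windows), and those under 0.4 at -0.21 ± 0.012 (1929 windows). The gap between the outer classes was 0.56 ± 0.051 in 3 of 3 libraries. Spearman's rho between level and ratio was 0.61 over these 5140 windows in each library, given as a description.

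The promoters below show this contrast for windows named further on. They are the first promoters found in the leading higher and lower autosomal windows, from RefSeq on GRCm38.p6, the 250 bases before the start, 5′ to 3′ on the gene's strand, with each CG in capitals. CG reads the same on both strands. Over the full 300 bases 4.96% of autosomal promoters held no CG. Mfsd12 (chr10:81357241-81357490, plus strand) and Psenen (chr7:30563628-30563877, minus strand) lie in windows at 1.41 and 1.36. Vmn2r37 (chr7:9223654-9223903, minus strand) and Vmn1r165 (chr7:23217082-23217331, plus strand) lie in windows at -1.01 and -0.95.
Mfsd12: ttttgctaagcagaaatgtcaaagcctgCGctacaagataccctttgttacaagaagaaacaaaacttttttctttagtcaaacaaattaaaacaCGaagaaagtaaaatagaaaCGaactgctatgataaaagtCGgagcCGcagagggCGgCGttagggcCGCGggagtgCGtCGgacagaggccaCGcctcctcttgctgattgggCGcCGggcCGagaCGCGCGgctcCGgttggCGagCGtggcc
Psenen: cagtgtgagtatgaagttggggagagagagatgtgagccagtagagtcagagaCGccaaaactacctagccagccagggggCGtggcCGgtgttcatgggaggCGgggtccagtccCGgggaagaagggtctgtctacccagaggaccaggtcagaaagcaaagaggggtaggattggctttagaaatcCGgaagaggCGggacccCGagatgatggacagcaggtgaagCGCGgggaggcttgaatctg
Vmn2r37: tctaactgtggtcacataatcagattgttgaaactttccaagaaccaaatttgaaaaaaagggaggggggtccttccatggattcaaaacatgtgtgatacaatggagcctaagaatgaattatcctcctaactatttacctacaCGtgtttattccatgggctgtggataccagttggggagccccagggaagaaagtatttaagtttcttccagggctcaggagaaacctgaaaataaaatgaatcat
Vmn1r165: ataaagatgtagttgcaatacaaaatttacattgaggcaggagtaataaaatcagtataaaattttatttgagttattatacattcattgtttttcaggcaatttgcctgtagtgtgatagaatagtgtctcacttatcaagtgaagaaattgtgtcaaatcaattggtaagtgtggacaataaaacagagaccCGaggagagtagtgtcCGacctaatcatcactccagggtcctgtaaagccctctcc
The stretch of Mfsd12 held 21 CG and that of Psenen 10, against 1 in Vmn2r37 and 2 in Vmn1r165. Over the full 300 bases their ratios of observed to expected CG were 1.22 for Mfsd12, 0.575 for Psenen, which puts it in the middle class, 0.0898 for Vmn2r37 and 0.285 for Vmn1r165. These 4 were picked by the rank of their windows and illustrate the classes without testing them.

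Distance from the ends gave different pictures at the proximal, centromeric end and at the distal, telomeric end of autosomes. Mouse chromosomes are acrocentric, so the proximal end adjoins the centromere, and distance was counted from the first window with input reads. The first 1 Mb stood at -0.14 ± 0.010 and the next at -0.090 ± 0.0038. Between 2 and 5 Mb the level was -0.24 ± 0.014, from there to 10 Mb it was -0.25 ± 0.011, and the lowest class, up to 20 Mb, stood at -0.30 ± 0.021. Windows 20 to 40 Mb away were at -0.15 ± 0.0021, and those beyond 40 Mb at -0.084 ± 0.011. The proximal 10 Mb lay below the interior, over 20 Mb from both ends, by 0.086, 0.071 and 0.074 (mean difference -0.077 ± 0.0084). This difference was -0.050 with the B6 input and -0.142 in windows with input from 5% below to 15% above the median.

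From the distal end the first 2 Mb stood at 0.03, and levels were highest at 2 to 5 Mb with 0.24, 0.14 and 0.15 (mean 0.18 ± 0.057). The next class, up to 10 Mb, stood at 0.12 ± 0.031 and that up to 20 Mb at 0.06 ± 0.025. Beyond 40 Mb the level was -0.20 ± 0.0068. The distal 5 Mb exceeded the interior by 0.33, 0.24 and 0.25 (mean 0.27 ± 0.050). It was 0.154 with the B6 input and 0.178 with a ratio of summed counts in place of medians. Gene density moved with distance: the distal 5 Mb held 1.03 genes per window and the interior 0.844. Within gene-free windows the level was still -0.12 ± 0.024 at 5 to 10 Mb from the distal end against -0.37 ± 0.030 beyond 40 Mb. Within windows of 1 to 2 genes it was 0.28 ± 0.065 at 2 to 5 Mb against 0.04 ± 0.018. At the proximal end, windows of 1 to 2 genes went from 0.04 ± 0.015 in the first 1 Mb to -0.15 ± 0.0064 at 10 to 20 Mb, while gene-free windows stayed between -0.32 and -0.40 over all 7 distances.

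**Figure D3:**
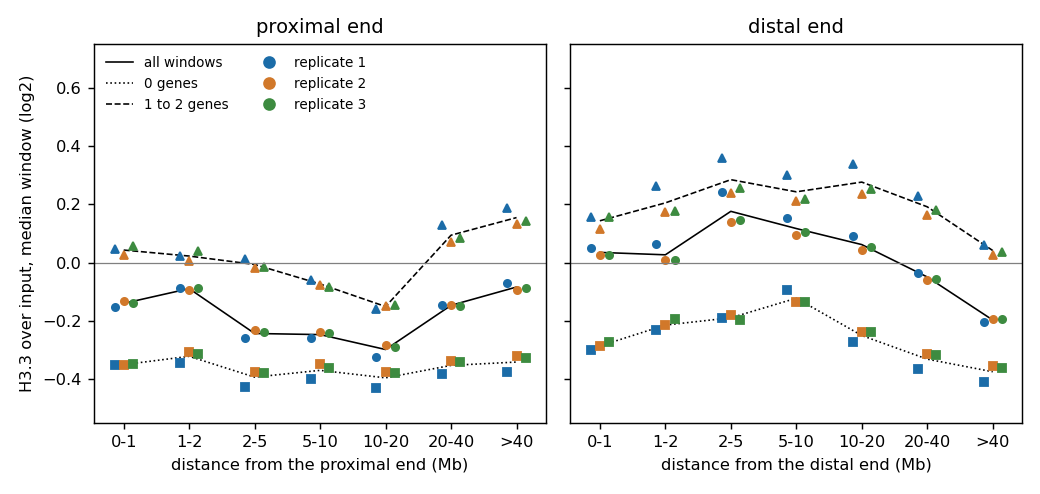
Median H3.3 level over input (log2, vertical axis) of autosomal windows by distance from the proximal end (left) and the distal end (right) in Mb, for all windows (circles, solid line), windows with 0 protein-coding genes (squares, dotted line) and with 1 to 2 (triangles, dashed line). Points are the 3 Cg libraries and lines their mean, lowest at 10 to 20 Mb from the proximal end (-0.30) and highest at 2 to 5 Mb from the distal end (0.18) for all windows.

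Single chromosome ends departed from these medians. Of the proximal 10 Mb, that of chromosome 7 was lowest at -0.49 ± 0.019 and that of 19 highest at 0.42 ± 0.086, with 1.15 and 2.17 genes per window. By median window the proximal 10 Mb of 17 and 19 had a mean above 0, and by a ratio of summed counts those of 11, 15, 16 and 18 did too. Of the distal 5 Mb, those of 11 and 15 were highest at 0.59 ± 0.095 and 0.57 ± 0.082, and those of 18, 17 and 3 lowest at -0.41 ± 0.051, -0.40 ± 0.047 and -0.38 ± 0.021. The distal 5 Mb of 7, whose number stands in the strain label, was at 0.29 ± 0.11. The Cg input itself was 0.21 below the B6 input over the windows from 140 to 150 Mb of chromosome 7, and its part in that level was not tested.

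On X the levels by distance stayed between 1.01 and 1.23 at both ends. From the proximal end the highest class was 5 to 10 Mb at 1.23 ± 0.014, with 0.85 genes per window. The distal 1 Mb stood at 1.34, 1.01 and 1.14 over 8 windows, where replicate 1 was apart. Their input was 0.13 above the autosomal median on the log2 scale, unlike the rest of X. On Y the windows up to the last listed short-arm gene (47 windows) stood at 1.00 ± 0.063 and the rest (1724 windows) at 1.01 ± 0.057, a difference of -0.0095 ± 0.0091.

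Named autosomal windows with the highest levels were led by chr10:81350001-81400000, with Hmg20b, a subunit of a histone demethylase complex, and Mfsd12, a transporter of lysosomes and melanosomes. It stood at 1.57, 1.30 and 1.35 (mean 1.41 ± 0.15, edgeR adjusted p = 9.16e-10) and holds 8 coding genes. Next came Mroh4 on 15 at 1.40 ± 0.10 and Gm38564 on 13 at 1.38 ± 0.057, each the only coding gene of its window. Elfn2, a synaptic adhesion protein, stood at 1.37 ± 0.11, and the window of Asxl1, a Polycomb-associated chromatin regulator, and Nol4l at 1.37 ± 0.14. All were higher in 3 of 3 libraries.

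The other 5 ranged from 1.36 to 1.32: Proser3 with the small heat shock protein gene Hspb6, the semaphorin gene Sema4c with Fam178b, Dnah8, Mllt10 and Son with Gm36712. Dnah8, at chr17:30750001-30800000, encodes a dynein heavy chain of the sperm flagellum and stood at 1.42, 1.29 and 1.37. In the carriers, also set over the Cg input, the same window stood at 1.89 in 1Rb and 1.79 in 3Rb by mean. This difference was not tested, and copy number of the window in the carriers was not measured. Mllt10 encodes a cofactor of a histone H3 lysine methyltransferase, and Son a splicing cofactor.

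On X the top window was that of Asmt, the last enzyme of melatonin synthesis, at chrX:170650001-170700000. It ran from 1.59 in replicate 3 to 1.87 in replicate 1 (mean 1.76 ± 0.15, edgeR adjusted p = 9.53e-12), or 3.38-fold. Bcor, a Polycomb corepressor, followed at 1.63 ± 0.11, then Emd with Rpl10 at 1.57 ± 0.089, Zmat1 at 1.52 ± 0.056 and Pgrmc1 at 1.51 ± 0.022. On Y the top windows were those of Gm52481 at 1.35 ± 0.17, Gm3376 at 1.29 ± 0.064 and Usp9y, a deubiquitinase gene of the short arm, at 1.23 ± 0.14. The Gm52481 window had 2.25 times the autosomal median input, and those of Gm3376 and Usp9y had 0.70 and 0.48 times.

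The 10 lowest named windows of the autosomes held many receptor genes. The lowest of the 10 was in Myo3a, a myosin of sensory hair cells, at chr2:22550001-22600000, with -1.18, -1.08 and -1.21 (mean -1.16 ± 0.071, edgeR adjusted p = 9.53e-12), at 1.83 times the median input. Vmn2r37 on 7 stood at -0.98, -0.99 and -1.06 (mean -1.01 ± 0.044), Skint6 on 4 at -1.18, -0.89 and -0.93, and Vmn1r165 on 7 at -0.95 ± 0.052. Olfr849, Vmn2r98, Pramel45, Olfr340 with Olfr341, Olfr134 and Klra1, a lectin-like receptor of natural killer cells, completed the 10, from -0.91 to -0.81. Of these 10 windows 6 hold an olfactory or vomeronasal receptor gene. Such genes belong to large families of near-identical copies, and how reads of equal fit were placed is not given in the sources used here. X and Y had no lower window.

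Gene lists differed widely, against a median of -0.053 ± 0.013 over all 53012 windows, of which 37.0% were higher and 42.4% lower. The genes of H3.3 itself and of its chaperones had a median of 0.84 ± 0.038, with 20 of 21 windows higher and none lower by edgeR's test. Averaged over their windows, H3f3a and H3f3b, which both encode H3.3, stood at 0.83 ± 0.057 and 1.05 ± 0.074. Daxx stood at 1.12 ± 0.16, Atrx, on X, at 1.38 ± 0.010 and Hira at 0.37 ± 0.013, with 1 of its windows at 0.12 ± 0.015 the only uncalled window of the list. Housekeeping genes (22 of 22 windows higher) stood at 0.84 ± 0.066, with Gapdh, a glycolytic enzyme, at 1.08 ± 0.047 and Polr2a, the largest subunit of RNA polymerase II, at 1.03 ± 0.046. Ribosomal protein genes stood at 0.76 ± 0.050 (79 of 80 higher), from Rpl10 on X at 1.57 ± 0.089 to Rpl22l1 at 0.15 ± 0.032, whose window was not called.

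Germ cell lists lay between these and the background. Meiotic prophase genes stood at 0.56 ± 0.0083, with 59 of 71 windows higher and 7 lower. Their highest windows held Hormad1, a protein of unsynapsed axes, at 1.08 ± 0.087, Meioc, which keeps cells in meiotic prophase, at 1.04 ± 0.063 and Sycp2, a synaptonemal complex protein, at 0.97 ± 0.17. The lowest lay in Mei4, needed for meiotic DNA breaks, at -0.64 ± 0.079, while the mean over the 8 windows of that gene was -0.36 ± 0.043. Spermatid genes stood at 0.43 ± 0.039, with 35 of 46 higher and 4 lower, led by Ldhc, the lactate dehydrogenase of sperm, at 1.18 ± 0.062, Odf2, of the outer dense fibres, at 1.09 ± 0.047 and Tssk6 at 0.97 ± 0.10. Prm1, Prm2, Prm3 and Tnp2 share 1 window at 0.82, 0.64 and 0.68, Tnp1 stood at -0.17 ± 0.021, and the windows of Spam1 and Spaca1 were the lowest at -0.40 ± 0.054 and -0.31 ± 0.084. Spermatogonial genes stood at 0.30 ± 0.085, with 28 of 39 higher and none lower, from Nanos3 at 0.99 ± 0.017 to Gfra1 at -0.066 ± 0.081, not called. The windows of these lists held 1.51 to 2.14 coding genes on average, and autosomal windows with 2 genes stood at 0.40. The spermatid list was near that level and the spermatogonial list below it. Of all windows 37.0% were higher and 42.4% lower.

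Lists of somatic cells of the testis had medians of 0.29 or less. Of all autosomal windows with a coding gene 47.7% were higher and 27.1% lower, at a level of 0.15 ± 0.030, and the Sertoli list was close to these shares. Leydig cell genes stood at 0.29 ± 0.098 (7 of 10 higher, 1 lower). Their highest window, with 4 coding genes, held Star, which brings cholesterol into mitochondria, at 1.05 ± 0.068. The lowest held Hsd3b6 and Hsd3b1 at -0.23 ± 0.029 and was the lower one. Peritubular and blood genes stood at 0.28 ± 0.088 (10 of 14 higher, 3 lower), from Cd68, in a window of 9 coding genes, at 1.22 ± 0.12 to Ptprc at -0.62 ± 0.065. Sertoli cell genes stood at 0.20 ± 0.11 (10 of 21 higher, 6 lower), from Gata1 on X at 1.35 ± 0.0099 to Fshr at -0.56 ± 0.054. In whole testis the share of each cell type in a level cannot be told apart.

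**Figure D4:**
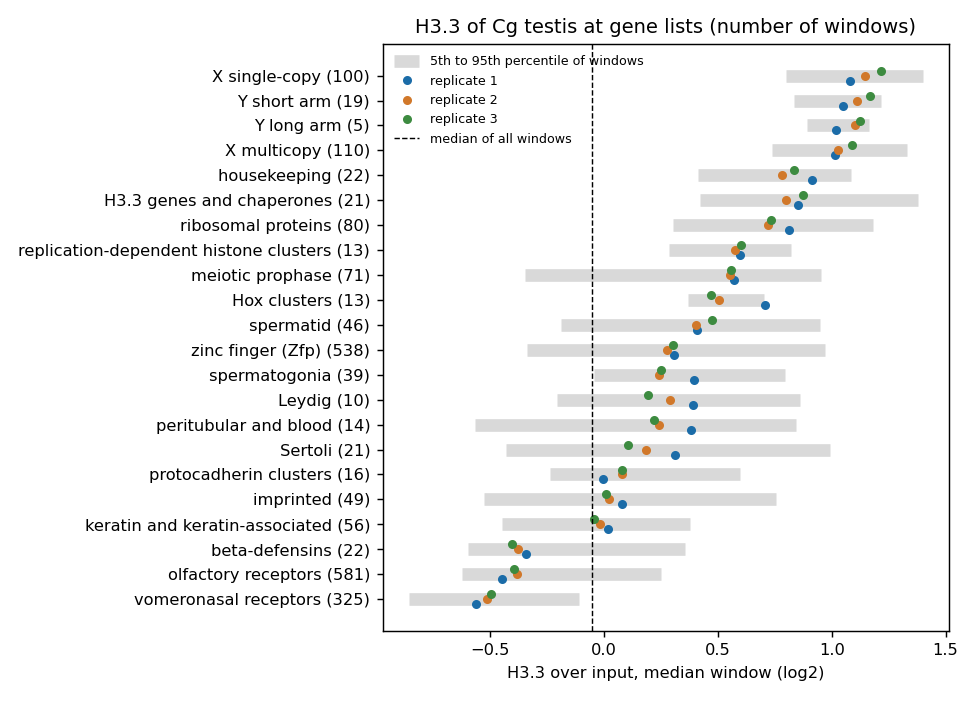
Median H3.3 level over input (log2, horizontal axis) of 22 gene lists (vertical axis, number of windows in brackets) in the 3 Cg libraries (points), with the 5th to 95th percentile of windows (grey) and the median of all windows (dashed line). Lists of X and Y lie above 1, vomeronasal and olfactory receptors at -0.53 and -0.41.

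Clustered gene families split in both directions. All 13 windows of replication-dependent histone clusters were higher, at 0.59 ± 0.014, and all 13 of the Hox clusters, regulators of body patterning, at 0.56 ± 0.13, where replicate 1 at 0.71 stood above the others at 0.50 and 0.47. Zinc finger genes named Zfp stood at 0.30 ± 0.017, with 326 of 538 windows higher and 59 lower. The autosomal ones exceeded autosomal windows with 1 to 2 genes by 0.17 ± 0.020 in 3 of 3 libraries. Protocadherin clusters stood at 0.051 ± 0.048 (6 of 16 higher, 1 lower), imprinted genes at 0.036 ± 0.036 (17 of 49 higher, 14 lower) and keratin genes at -0.014 ± 0.030 (11 of 56 higher, 12 lower). The shares of higher windows among protocadherin and imprinted genes were close to the 37.0% of all windows and below the 47.7% of autosomal coding windows. Imprinted windows ran from Mcts2 at 0.84 ± 0.10 to Snrpn at -0.68 ± 0.085.

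Receptor and defence families were low although their windows hold coding genes. Vomeronasal receptors stood at -0.53 ± 0.034 (300 of 325 lower, 7 higher) and olfactory receptors at -0.41 ± 0.036 (485 of 581 lower, 33 higher). Beta-defensins stood at -0.37 ± 0.031 (13 of 22 lower, 6 higher). Over all windows tested 42.4% were lower and 37.0% higher. Olfactory receptor windows held 2.18 coding genes on average, yet the autosomal ones lay 0.066, 0.051 and 0.059 below gene-free autosomal windows. With the B6 input this gap was 0.0050 in the other direction, so its sign rests on the input used. The highest olfactory receptor windows were all on X: Olfr1325 stood at 1.09 ± 0.064, Olfr1324 at 1.01 ± 0.026 and Olfr1323 at 0.99 ± 0.095.

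Genes of X and Y were near their chromosomes' medians. X single-copy genes stood at 1.15 ± 0.069 (100 of 100 windows higher), with Uba1 at 1.49 ± 0.087 and Kdm5c at 1.47 ± 0.051 the highest, and a window of Dmd, a very long gene, the lowest at 0.67 ± 0.083. Multicopy X families stood at 1.04 ± 0.040 (109 of 110 higher, 1 lower), 0.10 ± 0.035 below the single-copy genes in 3 of 3 libraries. This list also matched Cypt12 on 3, the lower window at -0.24 ± 0.12, and Cypt4 on 9 at 0.44 ± 0.14. Y short arm genes stood at 1.11 ± 0.059 (19 of 19 higher), with Sry, the testis-determining gene, at 1.22 ± 0.028. Y long arm families stood at 1.08 ± 0.057 (5 of 5 higher), with Ssty1 at 1.18 ± 0.032.

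Phosphorylated histone H2AX (γH2AX), the mark of the silenced sex chromosomes and of broken DNA, was read from the single B6 library over B6 input, so with no replicate, in another strain and at another age. Its median was 3.19 on X and 3.24 on Y against 0.037 on autosomes. Over autosomal windows H3.3 and γH2AX went in opposite directions, at Spearman's rho of -0.17 to -0.23 in the 3 Cg libraries. In windows at least 10 windows from a gene γH2AX stood at 0.29, and in windows with 5 or more genes at -0.0062.

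Cg was then compared with the 6 carrier libraries on 8 measures of the landscape, to ask where a baseline without translocation differs. The 3 comparisons with the smallest p gave no overlap between groups. X stood at 0.98 to 1.09 in Cg, 0.86 to 0.92 in 1Rb and 0.81 to 0.97 in 3Rb, a difference of 0.15 (exact two-sided permutation p = 0.0238, adjusted p = 0.0635). Y stood at 0.95 to 1.06 in Cg, 0.79 to 0.87 in 1Rb and 0.03 to 0.20 in 3Rb, a difference of 0.54 with the same p values. Against 1Rb alone the Y difference was 0.17 and against 3Rb alone 0.90. The named Y windows were not alike in the carriers. By mean, Usp9y stood at 0.99 in 1Rb and 0.98 in 3Rb, and Gm52481 at 1.13 and 0.53. Gm3376 stood at 1.18 in 1Rb and -0.0012 in 3Rb. These differences were not tested, and copy number on Y in the carriers was not measured. The proximal 10 Mb minus the interior was -0.086 to -0.071 in Cg and -0.052 to -0.027 in the carriers, a difference of -0.034, again with exact permutation p = 0.0238 and adjusted p = 0.0635. The smallest p that 3 against 6 libraries allow is 0.0238, and with only 3 of the 8 measures at it the adjusted p was 0.0635. None of the 8 passed an adjusted p of 0.05. All libraries were set over the Cg input, the carriers have other strains as parents, and strain and translocation cannot be told apart.

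**Figure D5:**
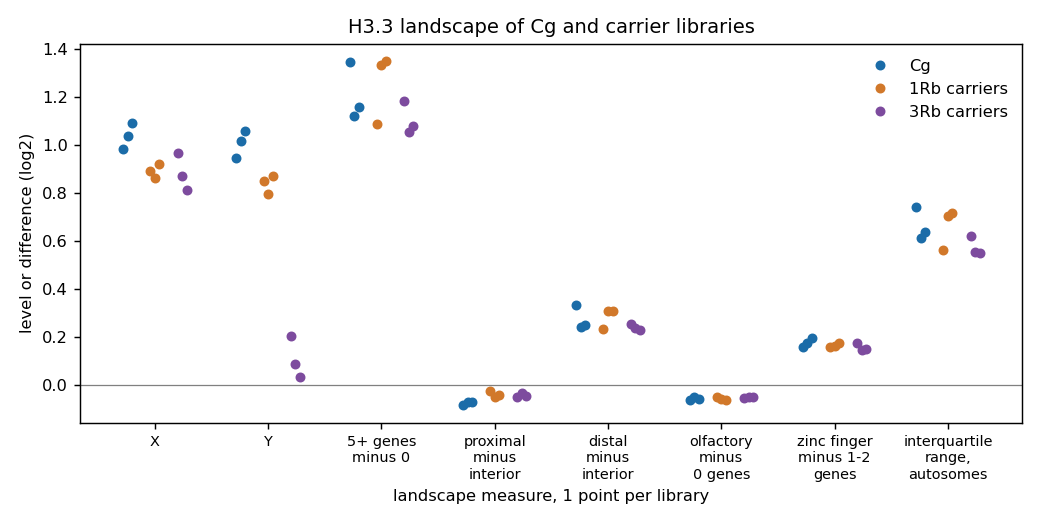
Each landscape measure (horizontal axis) as a level or difference (log2, vertical axis) in 3 Cg, 3 1Rb and 3 3Rb libraries, 1 point per library. Cg lies above both carrier groups on X and Y and below both for the proximal 10 Mb minus interior, and overlaps them in the other 5 measures.

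Chromosomes 8 and 12 are those that the translocation Rb(8.12) in the 1Rb strain label names. The number 12 also stands in the Cg strain label, B6.SPRET7MOLF12, a parent strain of both carrier groups. On chromosome 8 the proximal 10 Mb stood at -0.16 in Cg, 0.0073 in 1Rb and -0.048 in 3Rb, and on 12 at -0.19, -0.053 and -0.11, as means of 3 libraries and with no test. In the other 5 measures the groups overlapped. The gap between windows with 5 or more genes and none was 1.21 ± 0.12 in Cg, 1.26 ± 0.15 in 1Rb and 1.10 ± 0.068 in 3Rb (difference 0.028, exact permutation p = 0.643, adjusted p = 0.643). Without replicate 1 of Cg this difference was -0.041. The distal gap differed by 0.014, the olfactory gap by -0.0029, the zinc finger gap by 0.016 and the interquartile range by 0.046, with adjusted p from exact permutation between 0.381 and 0.643. With 3 and 6 libraries, a p above the threshold does not show that the groups are alike.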

How the data were processed

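Per the labels' protocols, DNA of sonicated whole testis was sequenced with and without precipitation by an anti-H3.3 antibody. The submitters' processing notes name CASAVA 1.8, BWA and mm10. The deposited values are whole-number read counts per 50 kb window, and filters on duplicate or multiply mapped reads are not given in the sources used here. Groups follow the titles. The input titled 1Rb_M, used in alternatives only, carries the strain label of the other 1Rb cross.

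Window levels were computed as log2 ratios with 0.5 added to each count and autosome totals as the scale. Genes came from RefSeq (GRCm38.p6, 21883 protein-coding genes), the same assembly as mm10 by name. Of 22 gene lists, 1 gene (H1f9) was not matched, and some members are not reported here. The proximal end was planned as the first window of the chromosome and taken as the first with input reads, since the windows before it hold none. Windows were tested with edgeR 4.0.16 (quasi-likelihood, library sizes set to autosome totals) in R 4.3.3. The same fit was then run on simulated counts, drawn with the main fit's dispersion for H3.3 and input alike. It recovered 28 of 67 windows changed 1.25-fold, 66 of 67 changed 1.5-fold and 66 of 66 changed 2-fold, with 9 false calls. Class levels have no test. Landscape measures were compared with scipy 1.17.1 by exact permutation, adjusted by Benjamini-Hochberg over 8. Alternatives were TMM, DESeq2 1.42.0, other filters, inputs, scales, summaries and left-out libraries.

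Named windows were the 10 highest and 10 lowest autosomal regions by their top window with a coding gene, at most 2 per chromosome, the 5 of X and 3 of Y, and the 3 highest and 2 lowest windows of each list; called windows with at most 1 window between them were joined into regions. Members and lists were chosen with earlier results of these data known. A window range by input was added after the data were seen.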

Additional observations from a re-analysis of the deposited data

Results flagged for a closer look

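Windows left out for an input above 5 times the autosomal median were in no main comparison, but the autosomal ones counted in autosome totals. Of these 34 windows 28 were below input in all 3 Cg libraries and 6 were above it in all 3, with a median of -0.37. Of the 28, 1 was on X, at -0.54, -0.34 and -0.35. The 6 stood out because H3.3 exceeded the input control in data outside the main measurement. The highest was chrY:90750001-90800000, with Mid1-ps1, at 1.57, 1.25 and 1.31 (mean 1.38 ± 0.17). Next was chr17:39800001-39850000, which holds the ribosomal RNA related gene Rn18s-rs5 and AY036118, at 1.52, 0.93 and 0.93 (mean 1.13 ± 0.34) with 14.2 times the median input, where replicate 1 stood above the others. The other 4 were smaller: 0.25 ± 0.036 on 4 from 3050001, 0.17 ± 0.10 on 1 from 88250001 (Mroh2a and Hjurp, a centromeric histone chaperone), 0.13 ± 0.093 on 17 from 13550001 and 0.033 ± 0.024 on 5 from 14900001. Their copy number in Cg mice was not measured. Of the 1399 windows with no input read, none exceeded 3 reads in all 3 H3.3 libraries when scaled to the input. Groups of 3 libraries are too small for a check for outlying samples.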

How the results depend on the processing

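The counts of higher and lower windows stayed within 1.5 times their value under all 8 alternatives, from 18646 to 20342 higher and from 17152 (DESeq2) to 24705 (3 inputs) lower. Without 1 replicate each they ranged from 18862 to 20324 higher and from 21360 to 23429 lower. Levels of X, Y and the other 6 measures in Cg moved by less than 1 SD without any 1 replicate, with 5 added to each count, with windows of a mean count of at least 10 and with totals over usual windows.

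The B6 input, the shallowest at 11876426 counts and from mice of 4 weeks, moved 7 of the 8: Y to 1.07, the gap between windows with 5 or more genes and none to 1.06, the proximal gap to -0.050, the distal gap to 0.154, the olfactory gap to 0.0050, the zinc finger gap to 0.207 and the interquartile range to 0.543. With 3 inputs summed the olfactory gap was -0.048. Within the range of input chosen after the data were seen, which gives no value for X or Y, the gene number gap was 1.06, the proximal gap -0.142, the distal gap 0.202 and the olfactory gap -0.115. The causes of these shifts were not tested.

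A ratio of summed counts in place of the median window, which weights the ratio of each window by its input count, turned 23 class levels. The gene number gap became 1.07 and the distal gap 0.178. Levels that turned positive were 0.050 over autosomes, 0.124 over all windows, 0.089 on chromosome 2, 0.062 on 4, 0.118 on 5, 0.063 on 7, 0.059 on 8, 0.044 on 10 and 0.065 on 15. So did miRNA windows (0.057) and rRNA windows (0.168) with no coding gene, bodies of single genes (0.051) and the interior (0.042). From the proximal end the values were 0.064 in the first 1 Mb, 0.120 in the next, 0.048 at 20 to 40 Mb, 0.079 beyond, and 0.041 at 5 to 10 Mb for 1 to 2 genes. From the distal end it was 0.117 at 20 to 40 Mb. The proximal 10 Mb stood at 0.151 on 11, 0.025 on 15, 0.113 on 16 and 0.040 on 18. With totals over usual windows, 142 of 201 class levels moved and 4 turned. Those for 1 gene (-0.024) and snRNA windows (-0.025) turned negative. So did 1 to 2 genes at 1 to 2 Mb from the proximal end (-0.028) and the distal 1 Mb (-0.016). With the B6 input the distal 1 Mb was at -0.019 and the window of Sohlh2 at 0.118. The ratio of sums and the mean count were not run for single windows.

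Between Cg and carriers none of the 8 measures passed an adjusted p of 0.05 under the alternatives run. By exact permutation the smallest p allowed is 0.100 against 1 carrier group alone and 0.0714 without a Cg replicate. No call could be made in either. Without 1 carrier library the smallest p is 0.0357, which X, Y and the proximal gap reached, at an adjusted p of 0.0952. Without 1 library the differences ranged from 0.122 to 0.177 for X, 0.448 to 0.615 for Y, -0.037 to -0.029 for the proximal gap, -0.041 to 0.071 for the gene number gap, -0.015 to 0.031 for the distal gap, -0.0069 to 0.00082 for the olfactory gap, 0.0058 to 0.026 for the zinc finger gap and 0.0060 to 0.072 for the interquartile range. The negative values of the gene number and distal gaps and the positive one of the olfactory gap came without Cg replicate 1, as did the 0.0060, and the 0.0058 came without Cg replicate 3. Against 1Rb alone these were -0.048, -0.0068 and 0.00066, and with a ratio of sums the distal gap was -0.0035. With the replicate number as a block (replicate block, labels permuted within a number) X, Y and the proximal gap kept their differences of 0.149, 0.536 and -0.034, with exact permutation p = 0.0741 and adjusted p = 0.198. That p is the smallest the block allows, so it could give no call. Deviations of same-numbered Cg and carrier libraries correlated at -0.57 to 0.14, so the numbers were not taken as pairs. At the median window, counting error of about 4.00% in 2 of the H3.3 libraries and 3.57% in the input limits what single windows can show.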
